A study of Mus musculus with 9 samples.

Results

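The pyruvate dehydrogenase complex and the enzymes that switch it on and off were followed through 10 genes in bulk RNA-seq of mouse liver. The genes were chosen by name, with their difference between the groups in these same libraries already known. That contrast, guide against Ccnd1 versus guide against Rosa26, is therefore described here and not tested. The 10 genes are Pdha1, Pdhb, Dlat, Pdhx and Dld (the complex), Pdk1, Pdk2, Pdk3 and Pdk4 (its kinases) and Pdp2 (a phosphatase), out of 27179 genes in the deposited table. All 9 libraries came from C57BL/6J mice labelled as wild type in genotype and given AAV8 through the retro-orbital route at 17 months of age. The vector carried saCas9, a small Cas9 nuclease, under TBG, a promoter active in hepatocytes, and a U6-driven guide RNA. The guide was directed at Ccnd1, which encodes cyclin D1 (sgCcnd1, n = 5), or at Rosa26, a locus often cut as a neutral control (sgRosa26, n = 4). The m-lobe of the liver was taken 3 weeks later and poly(A) RNA was sequenced. Every mouse thus received vector and nuclease, and no uninjected group is described here. The nuclease was driven where TBG is active, whereas the RNA came from all cells of the lobe, so fewer cells of a type and less RNA per cell cannot be told apart.

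On GRCm38 the structural genes lie at chrX:160122209-160138413 (Pdha1), chr14:8165996-8173025 (Pdhb), chr9:50634633-50659780 (Dlat), chr2:103021075-103073513 (Pdhx) and chr12:31331277-31351453 (Dld). The kinases lie at chr2:71873224-71903858 (Pdk1), chr11:95026258-95041354 (Pdk2), chrX:93764607-93832201 (Pdk3) and chr6:5483351-5496309 (Pdk4), and Pdp2 at chr8:104591451-104599026. 

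The complex converts pyruvate to acetyl-CoA in the mitochondrial matrix and so links glycolysis to the citric acid cycle and to fat synthesis. Pyruvate dehydrogenase kinases phosphorylate the E1 alpha subunit and switch the complex off, and pyruvate dehydrogenase phosphatases reverse this. In liver the complex is active after feeding, and its inactivation during fasting spares pyruvate for glucose production. Pdk4 is a textbook target of PPARalpha and FoxO1 in the fasted state, and Pdk1 is a known target of the hypoxia factor HIF-1.

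The starts of 4 of these genes are shown as a reference for the values that follow: the 3 whose libraries separated completely by group (Pdk1, Pdha1 and Dld) and Pdk4, whose difference had the opposite sign. The sequences are from RefSeq (GRCm38.p6), run 5′ to 3′ on the gene's strand and hold 250 bases before and 50 after an annotated start. All 10 genes had a match in that table. The windows lie at chr2:71872974-71873273 (+) for Pdk1, chrX:160138381-160138680 (-) for Pdha1, chr12:31351422-31351721 (-) for Dld and chr6:5496229-5496528 (-) for Pdk4. Capitals mark GC boxes (GGGCGG) together with CCAAT boxes and the core letters bound by HIF-1 (ACGTG), each on either strand. The form of this core that starts with G (GCGTG) is marked and counted with it.
Pdk1: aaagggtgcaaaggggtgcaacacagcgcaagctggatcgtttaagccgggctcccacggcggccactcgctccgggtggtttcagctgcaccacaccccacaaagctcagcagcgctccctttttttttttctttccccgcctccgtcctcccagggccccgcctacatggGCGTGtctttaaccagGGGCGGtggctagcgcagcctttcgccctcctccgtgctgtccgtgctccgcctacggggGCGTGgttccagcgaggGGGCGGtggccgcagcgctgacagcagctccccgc
Pdha1: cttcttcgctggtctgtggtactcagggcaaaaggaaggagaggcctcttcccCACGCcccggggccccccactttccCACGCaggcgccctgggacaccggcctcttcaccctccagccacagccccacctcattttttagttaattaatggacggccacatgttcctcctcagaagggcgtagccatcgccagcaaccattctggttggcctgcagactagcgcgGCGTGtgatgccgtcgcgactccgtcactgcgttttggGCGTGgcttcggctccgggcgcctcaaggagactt
Dld: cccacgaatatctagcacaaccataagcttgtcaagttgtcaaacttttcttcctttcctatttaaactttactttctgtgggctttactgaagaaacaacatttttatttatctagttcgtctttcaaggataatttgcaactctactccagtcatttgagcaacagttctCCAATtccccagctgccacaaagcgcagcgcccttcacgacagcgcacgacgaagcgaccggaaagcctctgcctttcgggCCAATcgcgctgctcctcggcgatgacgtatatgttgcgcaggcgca
Pdk4: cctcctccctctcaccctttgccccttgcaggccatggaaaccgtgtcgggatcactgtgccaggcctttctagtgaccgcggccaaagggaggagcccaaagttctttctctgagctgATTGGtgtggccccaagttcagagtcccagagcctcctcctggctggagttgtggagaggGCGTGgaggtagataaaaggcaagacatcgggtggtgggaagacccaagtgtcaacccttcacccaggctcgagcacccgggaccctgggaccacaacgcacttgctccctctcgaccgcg

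The Pdk1 window held 2 GC boxes, at 62 bases before the start and from position 16 after it. Dld held 2 CCAAT boxes and Pdk4 held 1, in reverse. Over all 10 genes, a GC box was found for 6 and a CCAAT box for 7, against 35.7% and 37.4% of all 32851 windows of this length. The HIF-1 core letters were present for 8 of the 10, all but Dlat and Dld, against 43.8% of all windows. They occur 2 times in the Pdk1 window, 4 times in that of Pdha1 and 1 time in that of Pdk4. The counts over 10 genes take a match in any window of a gene, whereas the shares are of windows, so the 2 are not alike. A second window of Pdk1 and of Pdk2 held no GC box, CCAAT box or HIF-1 core. Other motifs were searched on either strand and had a match in 0 of the 10 genes. The PPAR and ERR site letters AAGGTCA occur in 4.72% of all windows. The FoxO core letters GTAAACA occur in 3.65%. The NRF1 letters GCGCATGC occur in 2.71%, and any of the E2F forms TTTCCCGC, TTTGGCGC and TTTCGCGC in 1.84%. Of 12 windows (Pdk1 and Pdk2 have a second annotated start), 10 were above the median GC content of 52.7% and 11 above the median of 7 CpG. Dld was the exception among first starts, with 47% GC but 18 CpG. The Pdk4 window had 60.7% GC and 12 CpG, and that of Pdk1 66% GC and 25 CpG.

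Depth ranged from 10840595 to 20176201 gene-assigned reads per library. Letters name the libraries in column order, A to D for the control guide and E to I for the Ccnd1 guide. Ccnd1, the targeted gene, fell with its own guide: the control libraries averaged 744 ± 110 normalized counts (SD, n = 4) and the edited ones 362 ± 40.6 (SD, n = 5), a log2 difference of -1.03 ± 0.11 (SE, limma adjusted p = 0.0116), with all 5 edited libraries below all controls. Without library B, D, F, H or I the limma adjusted p was 0.0559 to 0.0852, while the log2 difference stayed between -1.02 and -0.96, and DESeq2 called Ccnd1 with all libraries (adjusted p = 9.7e-12) and without H (1.3e-08). It was the single gene called by limma among 12993 tested. Library H had 2.00 normalized counts of the Y-linked gene Ddx3y, against 810 to 1154 in the other 8. Hepatocyte markers were abundant in all 9 libraries and summed to 1723600 to 1982830 normalized counts in sgRosa26 and 1602300 to 2072100 in sgCcnd1. The labels number the libraries of a group as replicates but do not say that each is a separate animal, so p-values measure the spread between these libraries.

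All 5 structural genes of the complex had a higher mean in sgCcnd1, by 8.89% to 29.3%. The separation was complete for Pdha1 and Dld, nearly so for Pdhb and Pdhx, and absent for Dlat. Levels are given in normalized counts, that is, reads divided by 1 scaling factor per library. Differences are given as log2(normalized count + 1) with the standard error of the limma fit.

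Pdha1 encodes E1 alpha, the catalytic subunit that the kinases phosphorylate, and lies on the X chromosome. Its levels were 1150, 1278, 1413 and 1447.04 normalized counts in A to D and 1608, 1640.0, 1556, 1674 and 2071 in E to I. Every sgCcnd1 library was above the highest control, and library I stood well above the other 4. The means were 1322 ± 136 (SD, n = 4) and 1710 ± 206 (SD, n = 5), a log2 difference of 0.37 ± 0.10 (SE). Without library I the difference was 0.30.

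Pdhb encodes E1 beta, the partner of E1 alpha in the decarboxylating tetramer. Its levels were 1648, 1503, 1734 and 1623 normalized counts in A to D and 1917, 2098, 1618, 1812 and 1957 in E to I. Library G lay inside the control range and the other 4 sgCcnd1 libraries lay above it. The log2 difference was 0.21 ± 0.09 (SE).

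Dld encodes E3, the dihydrolipoamide dehydrogenase that this complex shares with the 2-oxoglutarate and branched-chain ketoacid dehydrogenases. Its levels were 1548, 1515, 1666 and 1638 normalized counts in A to D and 1791, 1851, 1892, 2015 and 2056 in E to I. All 5 sgCcnd1 libraries were above all controls. The means were 1592 ± 72.0 (SD, n = 4) and 1921 ± 112 (SD, n = 5), a log2 difference of 0.27 ± 0.07 (SE). Dld varied little within groups: its within-group SD on the log2 scale exceeded that of 6.40% of the genes with a mean level within 2-fold of its own.

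By log2 difference, the E2 core gene was nearer to the controls than the gene of its binding protein, which was at the level of Pdhb. Dlat encodes E2, the acetyltransferase that forms the core of the complex. It stood at 1302 to 1634 normalized counts in sgRosa26 and 1475 to 1793 in sgCcnd1, with 2 of 5 libraries, E and F, above all controls and a log2 difference of 0.12 ± 0.09 (SE), or 0.06 without library A. Pdhx encodes the E3-binding protein that docks E3 to the core. It stood at 285 to 383 normalized counts in sgRosa26 and 365 to 427 in sgCcnd1, with 4 of 5 libraries above all controls and a log2 difference of 0.21 ± 0.10 (SE), or 0.12 without library A. Summed over the 5 genes, the complex had 6383 ± 376 normalized counts in sgRosa26 (SD, n = 4) and 7538 ± 377 in sgCcnd1 (SD, n = 5). The sum was 5933 to 6708 in A to D and 7027 to 8002 in E to I, so the groups did not overlap.

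**Figure D1:**
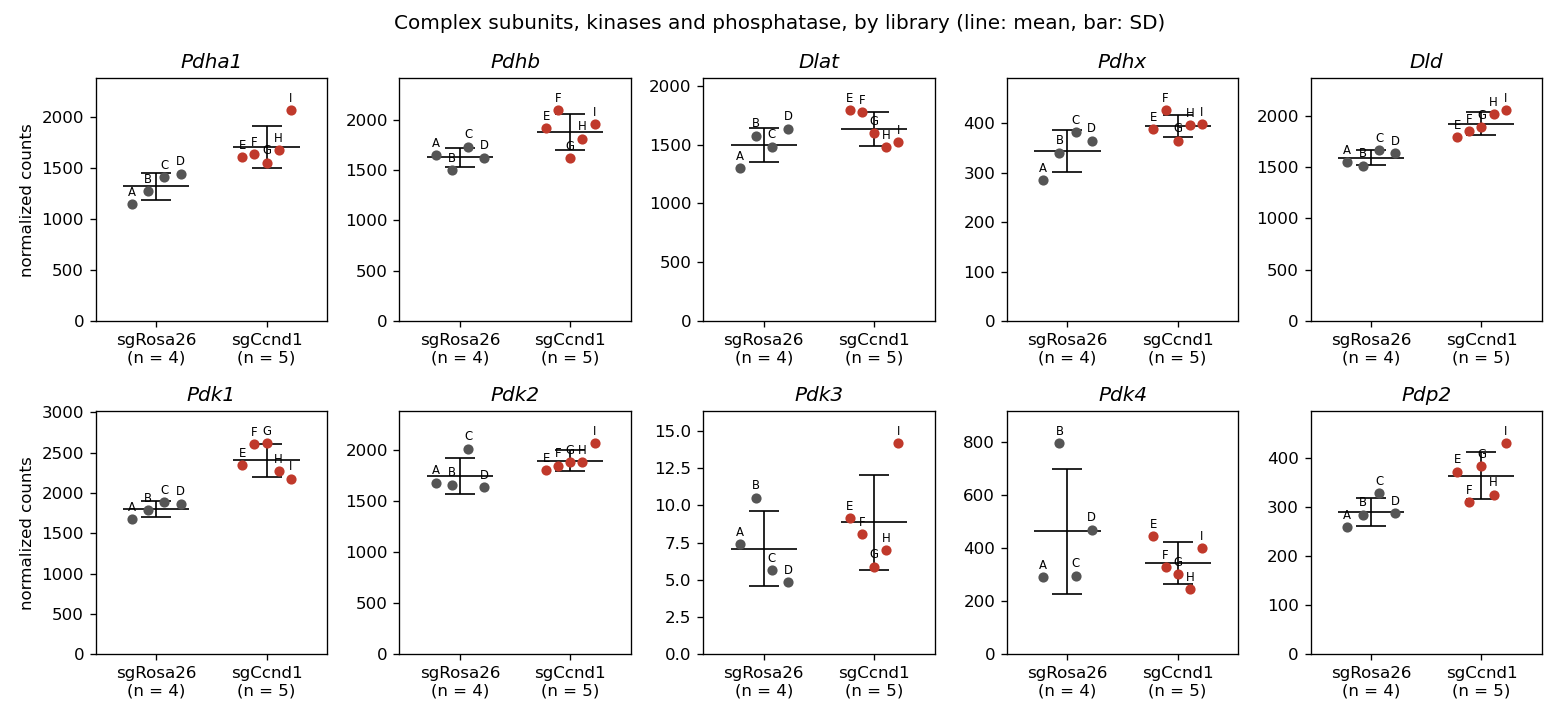
Normalized counts (vertical axes, from 0) of the 10 genes in each library, lettered A to I, with the group mean (line) and SD (bar). Pdk1, Pdha1 and Dld show no overlap between sgRosa26 (grey, n = 4) and sgCcnd1 (red, n = 5), whereas Pdk4 spreads from 290.2 to 796 among the controls alone.

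The 4 kinases did not move as a block. Pdk1 was higher in every sgCcnd1 library, Pdk2 was close to the controls, Pdk4 was lower on average with wide overlap, and Pdk3 was barely present. Pdk1 had levels of 1673, 1789, 1884 and 1867 normalized counts in A to D and 2343, 2603, 2619, 2270.1 and 2177 in E to I. The lowest sgCcnd1 library, I, was above the highest control, C. The means were 1803 ± 95.8 (SD, n = 4) and 2403 ± 199 (SD, n = 5), 33.2% apart, with a log2 difference of 0.41 ± 0.08 (SE), the largest among the 9 genes that entered the fit.

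Pdk2, the kinase with the highest level per kilobase of exon in these livers, had 1682, 1663, 2016 and 1638 normalized counts in A to D. In E to I it had 1805, 1850.4, 1885, 1881 and 2071. Library C stood apart from the other controls and reached into the range of sgCcnd1. The log2 difference was 0.12 ± 0.08 (SE) and was 0.19 without library C, 0.05 with quantile normalization and 0.09 with 75th percentile scaling.

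Pdk4, the fasting-responsive kinase, had 290.2, 796, 296 and 469 normalized counts in A to D and 444, 329, 301, 246 and 399 in E to I. Library B was 2.26 times the mean of the other controls, and 4 of the 5 sgCcnd1 libraries lay inside the control range. The log2 difference was -0.33 ± 0.27 (SE) and shrank to -0.03 without library B. It was -0.22 without library H, -0.51 without A and -0.50 without C. Without B the control mean was 352 ± 102 normalized counts (SD, n = 3), against 344 ± 78.8 in sgCcnd1 (SD, n = 5).

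Within groups Pdk4 was more variable than most genes. Its within-group SD of 0.52 on the log2 scale exceeded that of 98.4% of the 4428 genes with a mean level within 2-fold of its own. For Pdk1 this share was 20.8%. Among the control libraries, B also had the highest summed level of T and NK cell markers (232 normalized counts against 91 to 215), of B and plasma cell markers (429.5 against 218 to 291) and of stellate and fibroblast markers (5964 against 3494 to 5207). Its cholangiocyte markers were the highest too (1906 against 928 to 1303), as were its red blood cell markers (2436 against 1159 to 2128). Kupffer cell and macrophage markers (3487 against 3402 to 4125) and endothelial markers (2189 against 1743 to 2681) were not highest in B. Its hepatocyte marker sum was the lowest of the controls (1723600 against 1901270 to 1982830). The part of these cells in the Pdk4 level of library B was not tested. Adipocytes and muscle also express Pdk4. Of 6 muscle markers, Ckm, Myh4 and Myh6 were at 0 in every library, Acta1 was highest in library B at 3.51 normalized counts and was otherwise found in library C alone, Actc1 ranged from 0 to 3.998 (0 in B), and Myl1 was found in library A alone. The 6 summed to 1.88 to 4.92 normalized counts in sgRosa26 and 0 to 3.998 in sgCcnd1. Of 4 adipocyte markers, Lep was at 0 in every library, and Adipoq and Plin1 had no more than 1 read in any. Cfd, which also marks adipocytes, was at 2.46 to 21.9 normalized counts in sgRosa26, highest in library B, and at 3.92 to 21.99 in sgCcnd1. The 4 summed to 2.46 to 22.8 normalized counts in sgRosa26 and 4.90 to 23.0 in sgCcnd1, and their part in the Pdk4 level was not tested either.

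Pdk3, an X-linked kinase, had 5 to 12 reads per library. Its levels were 4.86 to 10.5 normalized counts in sgRosa26 and 5.87 to 14.2 in sgCcnd1. With a mean under 10 it did not enter the fit, and no difference is given for it.

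Levels of different genes can be set side by side only per length. On that scale Pdk2 was first among the kinases, at 553 ± 56.4 normalized counts per kilobase of exon in sgRosa26 (SD, n = 4), followed by Pdk1 at 232 ± 12.3, Pdk4 at 132 ± 67.5 and Pdk3 at 2.77 ± 0.98. The order was the same in sgCcnd1 (n = 5), at 600.2 ± 32.1, 309 ± 25.6, 97.9 ± 22.4 and 3.46 ± 1.26. In library B, Pdk4 and Pdk1 were nearly level, with a ratio of 0.986, against 0.240 to 0.557 in the other libraries. Pdk1 made up 23.3% to 26.9% of the kinase transcripts per kilobase in sgRosa26 and 26.6% to 33.0% in sgCcnd1, with 4 of 5 libraries above all controls. The share of Pdk4 was 8.72% to 23.0% in sgRosa26 and 7.30% to 12.6% in sgCcnd1, and that of Pdk2 was 53.3% to 66.0% and 57.0% to 62.1%.

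**Figure D2:**
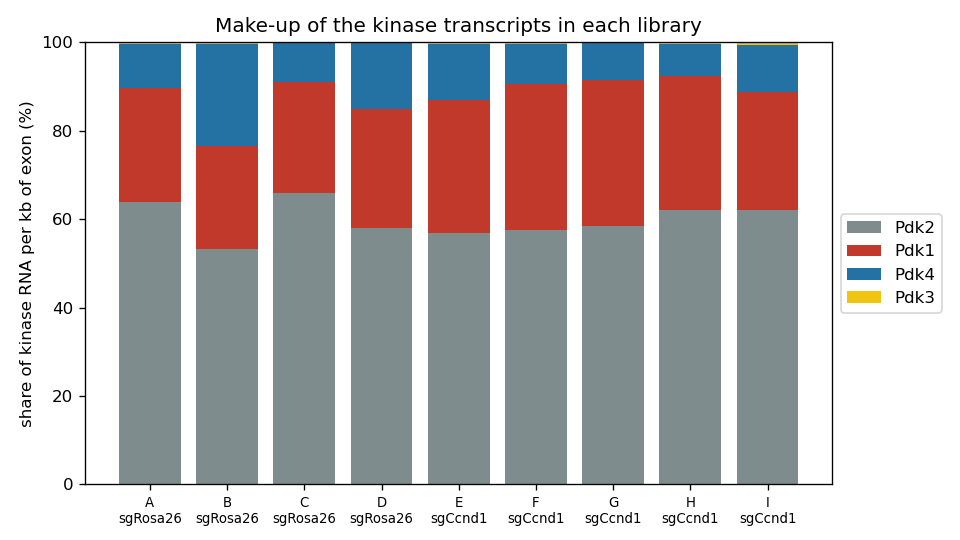
Share of the summed kinase level per kilobase of exon (vertical axis, %) contributed by Pdk2, Pdk1, Pdk4 and Pdk3 for the control guide (libraries A to D) and the Ccnd1 guide (E to I). Pdk2 holds the largest share in all 9 libraries, and the Pdk4 share is largest in library B, at 23.0%.

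Within the complex the E3 and E1 genes were highest per kilobase of exon. In sgRosa26 (n = 4) Dld was at 432 ± 19.5 (SD), Pdhb at 421 ± 24.7, Pdha1 at 354 ± 36.4 and Dlat at 307 ± 29.7, and Pdhx was far lower at 87.4 ± 10.8. The libraries of Dld and Pdhb overlapped on this scale, as did those of Pdha1 and Dlat. In sgCcnd1 (n = 5) the order was kept, at 522 ± 30.3, 487 ± 46.3, 458 ± 55.3, 334 ± 30.0 and 101 ± 5.65. The ratio of summed kinases to Pdha1 per kilobase, a balance of inhibitors to their substrate at the RNA level, was 2.61 ± 0.24 in sgRosa26 (SD, n = 4) and 2.23 ± 0.21 in sgCcnd1 (SD, n = 5). Of the 5 sgCcnd1 libraries, 2 were below all controls, so the groups overlapped. The ratio of Pdk1 to Pdha1 was 0.657 ± 0.035 and 0.685 ± 0.117, with a spread in sgCcnd1 that enclosed all controls.

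Pdp2, a phosphatase that reactivates the complex, had 259, 285, 328 and 288 normalized counts in A to D and 373, 311, 384, 326 and 431 in E to I. Libraries F and H lay inside the control range and the other 3 above it. The log2 difference was 0.32 ± 0.11 (SE). The other catalytic phosphatase, Pdp1, was scarce, with 15.5 to 21.6 normalized counts in sgRosa26 and 12.5 to 19.1 in sgCcnd1, and its log2 difference was -0.34 ± 0.22 (SE, limma adjusted p = 0.604), or -0.17 with quantile normalization. Pdpr, the regulatory subunit of the phosphatase, varied widely, from 35.1 to 119 normalized counts in sgRosa26 and from 52.8 to 155 in sgCcnd1. Its log2 difference of 0.55 ± 0.35 did not pass (SE, limma adjusted p = 0.587) and was 0.21 without library B.

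**Figure D3:**
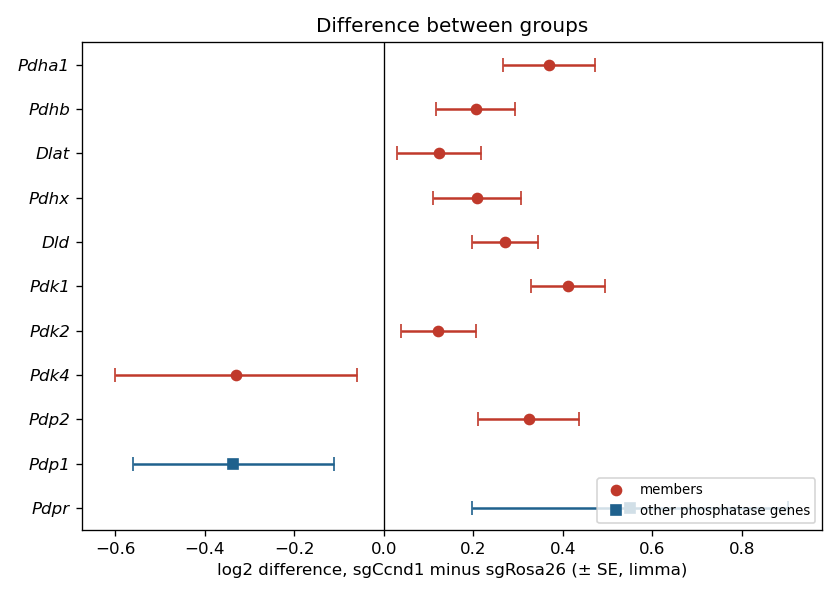
Log2 difference between groups (horizontal axis, sgCcnd1 minus sgRosa26, ± SE from limma) for the 9 genes of the complex, kinases and phosphatase that entered the fit (circles) and for Pdp1 and Pdpr (squares). Pdk1 has the highest value among the circles, at 0.41, and Pdk4 is the only circle below 0, at -0.33.

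Of the 9 genes in the fit, 8 were higher and 1, Pdk4, was lower in sgCcnd1, with a median log2 difference of 0.21. Over all 12993 genes tested the median was 0.01, and 52.9% had a difference above 0. In limma 0 of the 9 passed an adjusted p of 0.05, against 0.0077% of all genes, and 5 had an unadjusted p under 0.05, a level that 11.0% of all genes reached. The edgeR model called 0 of the 9, and DESeq2 called 2 (Pdk1 and Dld), against 0.262% of all genes called higher. Without library H, DESeq2 called Pdk1 alone, among 11 genes called higher in all. The groups did not overlap for 3 of the 9, all higher, against 1.92% of all genes higher and 1.97% lower without overlap. That number was 6 without library C and 5 without library G, where the share of all genes higher without overlap was 3.6% and 2.79%. Since these values chose the genes, nothing is read from the counts.

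The difference between groups, which was known, can be removed by subtracting each group's mean. What is left is how the genes vary together from library to library within groups, described by Pearson's r over 9 libraries that share their depth and scaling. Of 36 pairs, 23 had an r above 0, with a median of 0.18. Among the 5 structural genes 9 of 10 pairs were above 0, with a median of 0.35. The highest was Pdha1 with Dld (0.75) and the lowest, Dlat with Dld (-0.45). Pdp2 went with Pdk2 (0.67) and with Pdha1 (0.65). The kinases showed no common course: r was -0.06 for Pdk1 with Pdk2, -0.04 for Pdk1 with Pdk4 and -0.37 for Pdk2 with Pdk4. Pdk1 had an r of -0.20 with Pdha1 and -0.24 with Dld, the other 2 genes whose groups separated, although all 3 were higher in sgCcnd1.

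**Figure D4:**
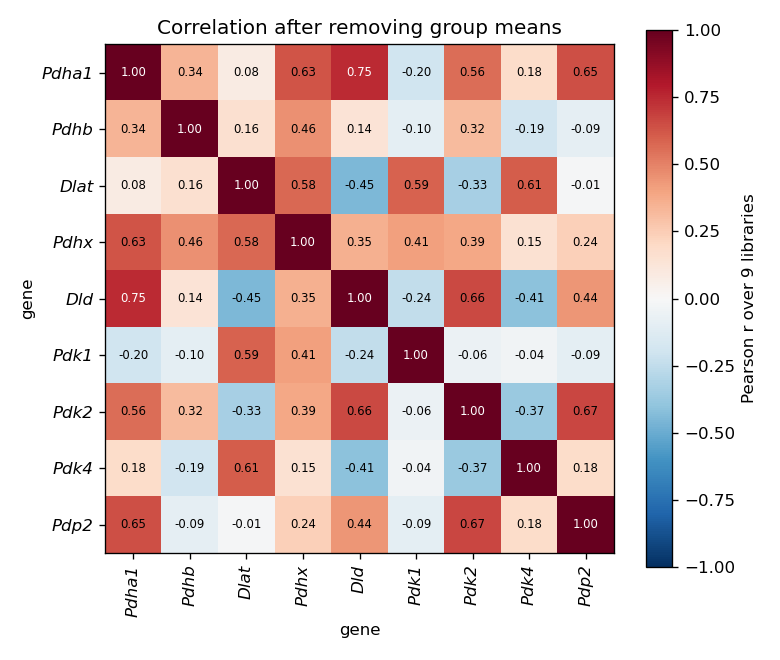
Pearson's r over 9 libraries, after each group's mean was subtracted, for every pair of the 9 genes in the fit (colour and number in each cell, from -1 to 1). Pdha1 with Dld has the highest value, 0.75, and Dlat with Dld the lowest, -0.45.

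The genes most like Pdk1 in this sense, among 10350 genes averaging 50 normalized counts or more, were Ebp (r = 0.96), a sterol isomerase of cholesterol synthesis, Adsl (0.94), a purine synthesis enzyme, Entpd8 (0.93), Yeats4 (0.92) and Tmem175 (0.92). Those most like Pdk4 were Gm8203 (r = 0.96), BC023105 (0.96), Tap1 (0.95), which transports peptides for MHC class I, Maged2 (0.95) and Rcn3 (0.94). Highest values among so many genes over 9 libraries are a description only. The levels of BC023105 and Tap1 were both highest in library B, at 1041 and 848 normalized counts, where Pdk4 was highest.

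Relations of Pdk4 and Pdk1 with target genes of their known regulators, not with the regulators themselves, were then tested within groups. The test was an exact permutation of the pairings inside each group (two-sided, 3 relations). Pdk4 and the mean log2 level of 22 PPARalpha and fasting targets had r = 0.36 (exact permutation p = 0.532, adjusted 0.570) and rho = 0.40 (exact permutation p = 0.396, adjusted 0.594). Without libraries A and D, which were farthest from the median of the list, r was 0.11. For Pdk4 with 11 FoxO1 and insulin-repressed targets r was -0.47 (exact permutation p = 0.214, adjusted 0.570) and rho -0.52 (exact permutation p = 0.209, adjusted 0.594), and r was -0.40 without A and G. For Pdk1 with 22 HIF-1 targets r was 0.22 (exact permutation p = 0.570, adjusted 0.570) and rho 0.18 (exact permutation p = 0.619, adjusted 0.619), and r was 0.02 without A and B. This r was -0.0900 without A alone, -0.0874 without I alone and 0.61 when a mean of 100 was required of each gene. None of the 3 relations passed.

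Around the complex, 8 lists of related genes held 111 further genes that were tested. In limma 0 passed an adjusted p of 0.05. At an unadjusted p under 0.05 there were 17, of which 15 were higher, a share of 15.3% beside 11.0% of all genes tested. The edgeR model called 0 and DESeq2 called 2, Pcx and Sdha, both higher (0.262% of all genes were), and without library H it called 1. The groups did not overlap for 5 of the 111 genes, all higher in sgCcnd1, beside 1.92% of all genes higher and 1.97% lower. The list medians below are log2 differences, to be read against 0.01 over all genes. In brackets is the range over the fits that left out 1 library.

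Pyruvate has other fates in liver, and those genes were mixed, with 8 of 15 higher and a median of 0.00 (-0.06 without library C to 0.07 without B or D). Pcx encodes pyruvate carboxylase, which makes oxaloacetate for glucose production. It stood at 7270 ± 436 normalized counts in sgRosa26 (SD, n = 4) and 8746 ± 311 in sgCcnd1 (SD, n = 5), with no overlap and a log2 difference of 0.27 ± 0.08 (SE, limma adjusted p = 0.282). Me1, malic enzyme, which forms pyruvate and NADPH in the cytosol, stood at 2009 to 5059 and 5473 to 7915 normalized counts (0.73 ± 0.24, SE, limma adjusted p = 0.334). Library A was the lowest control for Me1, and without it the log2 difference was 0.42. The mitochondrial pyruvate carrier genes Mpc1 and Mpc2, named after their values were seen, were at log2 differences of -0.05 ± 0.15 and 0.10 ± 0.14 (SE). The sign for Mpc1 reversed without library D or I, and Mpc2 ranged from 0.02 to 0.23 when 1 library was left out.

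Citric acid cycle genes, downstream of the complex, were higher for 13 of 15, with a median of 0.10 (0.06 without library A to 0.17 without E), or 0.03 with quantile normalization. Sdha, the flavoprotein of succinate dehydrogenase, stood at 6349 to 6952 normalized counts in sgRosa26 and 7969 to 9492 in sgCcnd1, a log2 difference of 0.33 ± 0.08 (SE, limma adjusted p = 0.253). Suclg2, a subunit of succinyl-CoA ligase, stood at 1676 to 2181 and 2200.1 to 2742 normalized counts (0.32 ± 0.10, SE, limma adjusted p = 0.306). In both lists these genes separated by group without passing the adjustment in limma, and DESeq2 called Pcx and Sdha (adjusted p = 0.0240 and 0.0074).

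Other mitochondrial systems also use Dld. Of 11 genes of the 2-oxoglutarate and branched-chain complexes and the glycine cleavage system 7 were higher, with a median of 0.05 (0.02 without library A to 0.08), or -0.01 with quantile normalization. Ogdh was at 0.11 ± 0.08 (SE, limma adjusted p = 0.632; 0.0054 with quantile normalization) and Bckdhb at -0.14 ± 0.11 (SE, limma adjusted p = 0.660; -0.07 without library E). Genes for the lipoyl and thiamine cofactors were higher for 9 of 12, with a median of 0.06 (-0.0012 without library A to 0.11 without B). Bola3, needed for lipoate formation, was at -0.14 ± 0.10 (SE, limma adjusted p = 0.623). The phosphatase list, Pdp1, Pdpr and Ppm1k, had a median of 0.23 over 3 genes (0.10 without library I to 0.34 without E).

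The lists of targets of the kinases' known regulators had medians of 0.03 to 0.20. PPARalpha and fasting targets were higher for 21 of 22, with a median of 0.20 (0.05 without library A to 0.28), or 0.12 with quantile normalization. Ehhadh and Hadha, enzymes of fatty acid oxidation, were at log2 differences of 0.25 ± 0.09 and 0.22 ± 0.09 (SE, limma adjusted p = 0.372 and 0.401). FoxO1 and insulin-repressed targets were higher for 7 of 11, with a median of 0.11 (-0.01 without library D and 0.01 without G, to 0.15), or 0.03 with quantile normalization. Foxo3 was at 0.46 ± 0.17 (SE, limma adjusted p = 0.363) and Sesn1 at 0.13 ± 0.12 (SE, limma adjusted p = 0.713). HIF-1 targets were higher for 12 of 22, with a median of 0.03 (-0.0012 without library H to 0.07 without B), which was below 0 in 3 of the alternatives. The glycolytic enzyme gene Pgk1 was at 0.27 ± 0.09 and Bnip3 at 0.30 ± 0.11 (SE, limma adjusted p = 0.334 and 0.359).

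**Figure D5:**
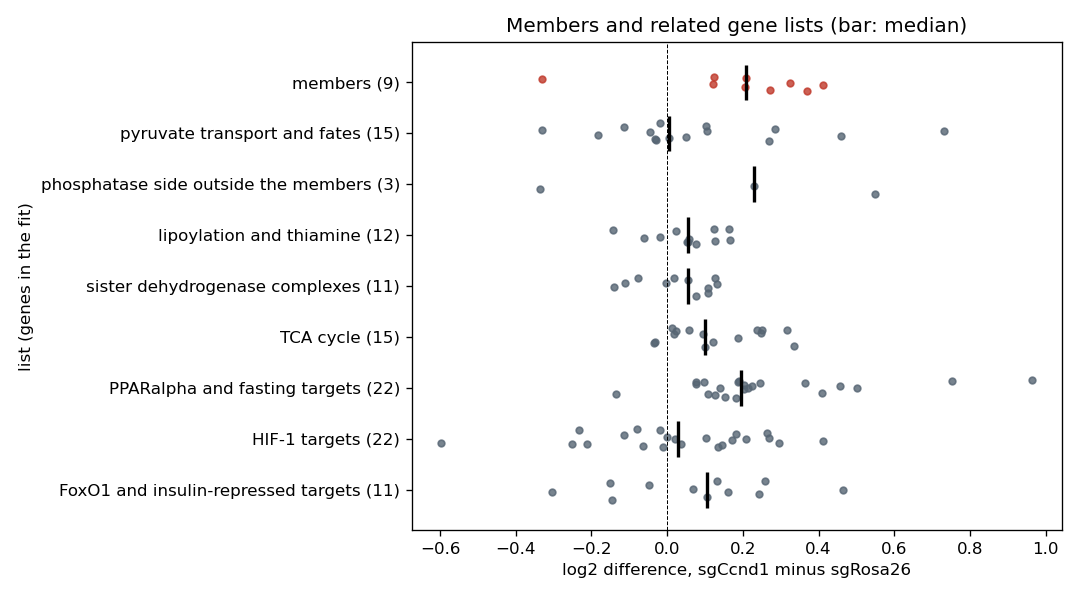
Log2 difference between groups (horizontal axis, sgCcnd1 minus sgRosa26) of each gene in the fit, for the members and for 8 lists of related genes (vertical axis, number of genes in brackets), with the list median as a bar. The members have a median of 0.21 and the lists run from 0.00 for pyruvate transport and fates to 0.23 for the 3 genes of the phosphatase list, whose median was 0.10 without library I.

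Markers of other cell types and clock genes were measured in the same libraries. T and NK cell markers were lower for 5 of 5 genes tested, with summed levels of 91 to 232 normalized counts in sgRosa26 and 43 to 166 in sgCcnd1, and B and plasma cell markers for 5 of 5 (218 to 429.5 and 161 to 403). Kupffer cell and macrophage markers were lower for 6 of 8 (3402 to 4125 and 2935 to 3632), stellate and fibroblast markers for 5 of 6, cholangiocyte and endothelial markers for 3 of 5 each, and red blood cell and hepatocyte markers for 2 of 4 and 3 of 6. Clock genes were mixed, with 9 of 13 higher and a median log2 difference of 0.35. The 4 lower were Npas2, Bmal1 (-0.44), Cry1 (-0.24) and Per2 (-0.19), and the highest value was that of Dbp (1.08). Of these marker and clock genes 0 passed in limma after adjustment (lowest adjusted p = 0.225), and DESeq2 called 3 of the 58 tested, all lower, beside 0.539% of all genes called lower. These were the macrophage genes Lyz2 and Cd68 and the clock gene Npas2 (log2 difference -1.29), and Cd68 was not called without library H. Their part in the levels of the complex and its kinases was not tested, and the labels give no hour of harvest.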

How the data were processed

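Poly(A) RNA of the liver m-lobe was sequenced in 9 libraries (4 sgRosa26, 5 sgCcnd1). The submitters' processing notes name Trim Galore 0.6.7, HISAT2 2.2.1, featureCounts 2.0.3, FastQC 0.74, MultiQC and DESeq2 2.11.40.8, and the build mm10 (GRCm38). The annotation and use of strand are not given in the sources used here, so reads of overlapping genes could be shared. The values the authors deposited are a never-negative signal, normalized counts, in which 100% of values were whole multiples of the value of 1 read (tolerance 0.01), so read counts were recovered for the count models. Column names give the guide and a number found in no label, so a column could be tied to a group but not to a sample.

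Genes averaging 10 normalized counts or more were fitted as log2(normalized count + 1), a scale that understates changes of low genes, with limma 3.58.1 in R 4.3.3 (lmFit, eBayes with trend, two-sided, no covariates). P-values were adjusted by Benjamini-Hochberg over all 12993 genes. Alternatives were other pseudocounts, minimum means and scalings, robust eBayes, edgeR 4.0.16 quasi-likelihood (TMM or RLE), DESeq2 1.42.0 (254 adjusted p-values undefined) and leaving out each library. Procedures were tested on simulated data. Exon lengths are unions of GENCODE M21 exons (GRCm38) per gene and may differ from the exons counted. Depth precision covers counting error only. Named beside the 10 genes were Ccnd1, Pdp1, Pdpr, the 2 genes of smallest p in each pathway list and the 5 most like Pdk1 and Pdk4. Ddx3y, Mpc1, Mpc2, Lyz2, Cd68, the clock genes and the muscle and adipocyte markers were named after their values were seen. A gene that this rule names is not reported here. The genes and lists were chosen with earlier results of these data known. Plots used Python 3.11.15 with matplotlib 3.10.9.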

Additional observations from a re-analysis of the deposited data

Results flagged for a closer look

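Of 64 groups of values examined, 2 had a library far from the rest, where chance gives about 3.2. One was library C of sgRosa26, where Pdk2 reached 2016 normalized counts while the remaining controls spanned 1638 to 1682. The second was library I of sgCcnd1, where Pdha1 reached 2071 normalized counts while its group otherwise spanned 1556 to 1674.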

How the results depend on the processing

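No paired analysis was possible because no replicate number appears in the column names. All 189 differences of the 9 genes under 21 alternatives kept their sign and moved by less than 1 within-group SD, with Pdk1 between 0.34 and 0.45 and Pdk4 between -0.51 and -0.03. Their median ranged from 0.17 to 0.26. The number of genes called was 0 higher and 1 lower in limma, 2 lower with quantile normalization, and 34 higher and 70 lower with DESeq2. Without library H, an alternative chosen after seeing the data, DESeq2 called 11 higher and 27 lower and edgeR called 0 lower. In the fits that left out 1 library limma called 0 higher and 0 to 2 lower. Of the 9 genes DESeq2 called 2 (1 without H) and limma called 0 in each fit that left out 1 library, and of the 111 listed genes DESeq2 called 2 (1 without H) and limma called 0. Genes without overlap numbered 3 to 6 when 1 library was left out. The cause of these shifts was not tested, and fewer samples enter those fits. The relation of Pdk1 with HIF-1 targets reversed to r = -0.0900 without library A and -0.0874 without library I (exact permutation, adjusted p = 0.939 and 0.811), and ranged from -0.0900 to 0.40 over the fits that left out 1 library. It was 0.61 when a mean of 100 was required of each gene (exact permutation, adjusted p = 0.285) and 0.34 with a pseudocount of 10. The relation of Pdk4 with PPARalpha targets ranged from 0.06 without library A to 0.57 without E. Among the other named genes Mpc1 reversed, to 0.065 without library D and 0.0673 without I (range -0.131 to 0.0673 over these fits). The differences of Ehhadh (0.16 without A), Hadha (0.14 with quantile normalization), Bola3 (-0.24 without A) and Sesn1 (0.05 without G) moved by over 1.5 times. So did those of Pdpr, Me1, Pdp1, Ogdh, Bckdhb and Mpc2, whose values are given above. Depth limits Pdk3, with 5 to 12 reads per library.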
